A study of Arabidopsis thaliana with 24 samples.

Results

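The wild types of an RNA-seq series on lsm5 and lsm4, Arabidopsis thaliana mutants of the Sm-like (LSM) RNA-binding proteins, were compared with each other. WT C24 is the accession C24, grown on soil and taken on day 30 before bolting; WT Col is the accession Columbia, grown on Murashige and Skoog medium with 0.8% agarose and taken on day 15. The members were chosen by label, as the libraries labelled wild type, and their counts were joined by gene, intron or alternative splicing (AS) bin. They make up 12 of the 24 sequenced libraries and 6 of the 12 count columns, 3 for each wild type, because each deposited column joins the 2 libraries of a replicate. Tested were 20269 of 33602 genes, 5392 of 120717 introns and 2778 of 7973 AS bins.

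Accession, age and growth medium differed together, so the share of each in a difference cannot be told apart. All plants were taken whole and had 4 days of stratification, 22 °C and continuous light. The text on the whole series gives 2 weeks of growth for all plants, whereas the protocols of the samples give day 15 and day 30; the protocols were followed. The mutants served as a second pair of groups: lsm5 (sad1), in C24, shared soil and day 30 with WT C24, and lsm4 (lsm4-1), in Columbia, shared medium and day 15 with WT Col. Nothing in the labels ties the replicates to separate growths; the p-values therefore cover the spread among these samples alone, which may be technical. Because whole plants were used, fewer cells of a type and less RNA per cell cannot be told apart.

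Accessions of Arabidopsis are inbred lines that differ in flowering time, disease resistance and the defence compounds of their leaves, often through one gene that is lost, silent or altered in one of them. A rosette that ages without bolting also passes from young to old leaves, and soil and agarose differ in nutrients, microbes, air humidity and the ease with which roots are recovered. Reads were mapped to TAIR10, the genome of Columbia, so a C24 gene that is missing, one that is silent and one whose sequence no longer matches all give few counts.

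The sequences on which the splicing results below turn are shown here, 5′ to 3′ on the strand of the gene, as read from the reference genome of the TAIR10 coordinates. In the AS bins the capitals mark the bin, a stretch that some annotated transcripts keep as exon and others do not, and the lower case marks its flanks. The first 3 had no count in WT C24 and the fourth had none in WT Col.
AT4G16830 bin 4 (chr4:9470948-9470977, plus strand): tgctgttgactagTGAGagaggcaaggagt
AT5G46250 bin 13 (chr5:18757692-18757721, plus strand): tttcagGACGGTGGCAATCATCAGaaggat
SR34B bin 10 (chr4:1070516-1070545, plus strand): ttttgtccagATAAAAAAAGctcgatgaca
ATCWINV1 bin 7 (chr3:4535491-4535519, minus strand): tcatgagcagATCCTAATGgttagttttt
In the introns the lower case marks the intron and the capitals mark the 3 exon bases beside it. Introns keep the numbers of the count table, which follow the coordinates, so in a gene on the minus strand intron 1 is the last one. CP5 and SBPASE had no intron count in WT C24, FER1 and LOX2 had fewer counts there relative to their gene, and AT1G35680 had more.
CP5 intron 1, 5′ end (chr1:24047371-24047383, minus strand): CAGgtactactaa
CP5 intron 1, 3′ end (chr1:24047306-24047323, minus strand): attaccatggtgtagTTG
SBPASE intron 1, 5′ end (chr3:20709751-20709763, plus strand): AAGgttcgttatc
SBPASE intron 1, 3′ end (chr3:20709828-20709845, plus strand): atttgataaaagcagCGT
FER1 intron 7, 5′ end (chr5:229277-229289, minus strand): CAAgtaagcttct
FER1 intron 7, 3′ end (chr5:229195-229212, minus strand): gctttctatttacagTGT
LOX2 intron 1, 5′ end (chr3:16525786-16525798, plus strand): AGCgtgagtacac
LOX2 intron 1, 3′ end (chr3:16526103-16526120, plus strand): ttatacatatttcagGGA
AT1G35680 intron 3, 5′ end (chr1:13209815-13209827, plus strand): CAAgtaagtcaat
AT1G35680 intron 3, 3′ end (chr1:13209911-13209928, plus strand): catttgttgttgtagGGT
Each of these introns begins with GT and ends with AG, as 97.4% of the tested introns did.

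Gene counts totalled 16997209 to 37194686 in the WT C24 libraries and 9402839 to 52218346 in the WT Col libraries. The first principal component of the 6 libraries carried 79.9% of the variance and parted the wild types. On the second (10.7%), WT C24 2 stood apart from WT C24 1 and 3, and WT Col 1 from WT Col 2 and 3. Introns took 1.62 ± 0.055% of the counts in WT C24 and 1.84 ± 0.060% in WT Col (SD, n = 3 each); the groups did not overlap, and the exact two-sided permutation test gave p = 0.1, the smallest it can give with 3 against 3. Chloroplast genes took 2.05 ± 0.94% of the counts in WT C24 and 2.16 ± 2.12% in WT Col, and mitochondrial genes took 0.0377 ± 0.0124% in WT C24 and 0.0532 ± 0.0345% in WT Col (SD, n = 3 each). The libraries of the groups overlapped (exact permutation p = 0.9 and 0.7); without WT Col 2 both ratios turned round, and without WT C24 2 that of the chloroplast did.

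Gene by gene, WT C24 was set against WT Col with edgeR's quasi-likelihood test; a gene was called, and is said to have risen or fallen in WT C24, at a Benjamini-Hochberg adjusted p under 0.05. In WT C24, 3954 genes (19.5% of those tested) rose and 4381 (21.6%) fell, together 41.1%, and the median log2 fold change over all tested genes was -0.04. When a change of at least 1 on the log2 scale was required, 1449 rose and 1731 fell. Without WT C24 2 and WT Col 1, 11037 genes were called, 7777 of them among those above. The libraries of the wild types did not overlap in 52.2% of all tested genes, called or not, which is the background for statements of no overlap below. Levels are CPM, the count of a gene relative to the library's total, after TMM scaling; 3 values in a row belong to libraries 1, 2 and 3 in that order, and n = 3 for each wild type throughout. Log2 fold changes are WT C24 over WT Col with their standard error (SE).

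The genes were read through 29 lists of 559 genes, plotted in the figure of list members by log2 fold change. With 19.5% rising and 21.6% falling as the background, the salicylic acid, senescence and touch lists had most of their tested members higher in WT C24, and the root, iron, flavonoid, xylem, sulfur and drought and cold lists had most of theirs lower. None of the 315 called genes that the lists and the rules for naming cover changed sign under any alternative processing that was run, and 204 kept their call under all of them.

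**Figure D1:**
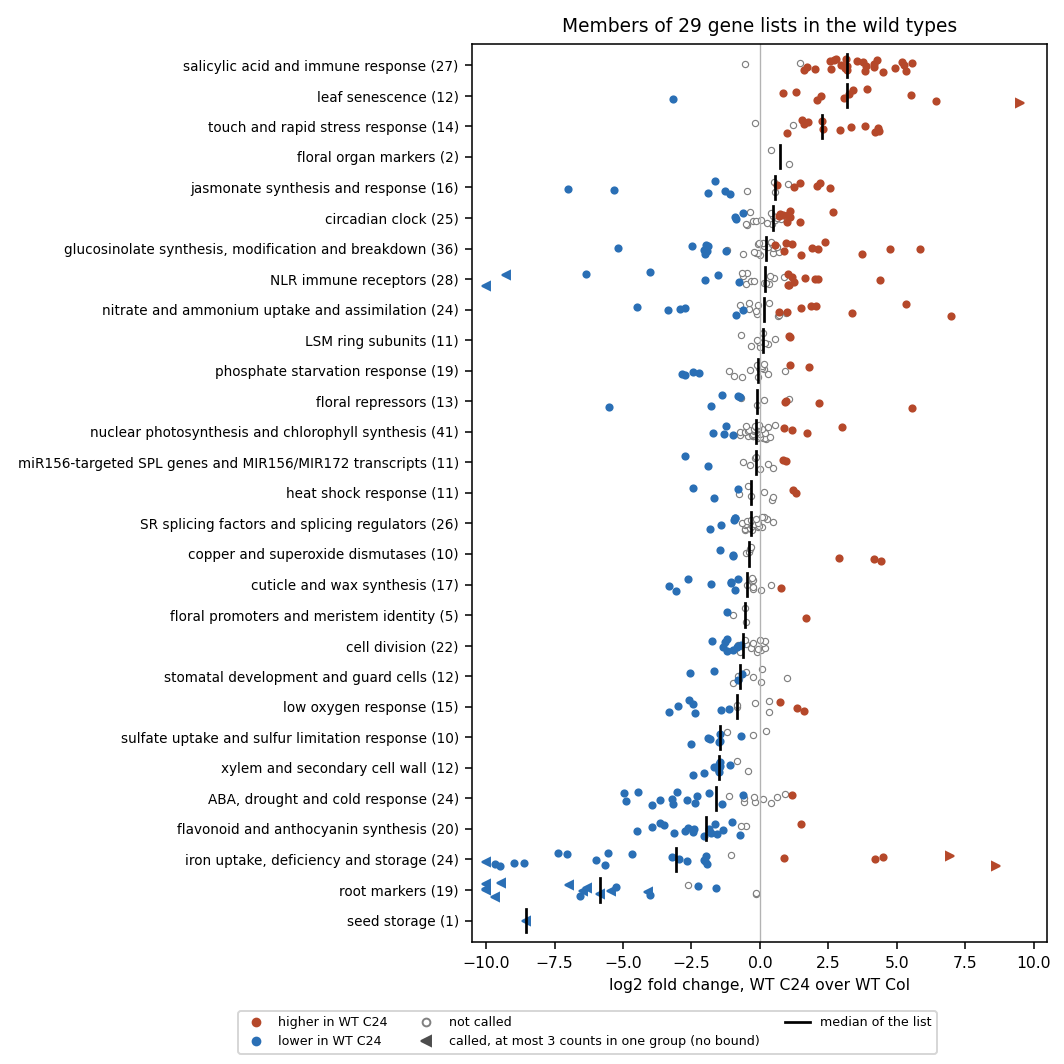
Log2 fold change of WT C24 over WT Col (x axis) for the tested members of 29 gene lists (rows, number tested in brackets); red and blue points were called higher or lower in WT C24, open points were not called, black bars are list medians, and triangles had at most 3 counts in one wild type, so that their place is no bound. The salicylic acid list has its median at 3.2 and the root list at -5.85.

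Genes that mark root tissue were low in WT C24. Of 21 root markers, 19 were tested; 16 fell, 0 rose, and the median log2 fold change was -5.85, against -0.04 for all genes. Summed over the list they gave 184 to 210 CPM in WT C24 and 475 to 630 CPM in WT Col. Of this, PYK10, described below, alone gave 118 to 129 CPM in WT C24 and 304 to 453 CPM in WT Col. LRX1, an extensin-like protein of root hair walls, had 0, 0 and 0 CPM in WT C24, against 5.54, 8.99 and 14.03 CPM in WT Col. EXPA7, a root hair expansin, had 0, 0 and 0 CPM in WT C24, against 4.41, 5.58 and 9.05 CPM in WT Col. EXPA18, its close relative in root hairs, had 0, 0 and 0 CPM in WT C24, against 2.06, 5.23 and 7.17 CPM in WT Col. All 3 stood at 0 in every WT C24 library and in none of WT Col: with 3 counts per group as the floor they were at least 252-fold, 162-fold and 136-fold lower (adjusted p = 1.50e-05, 1.80e-05 and 7.80e-05, in that order). RHD6, the regulator of root hair start, and the tonoplast aquaporin TIP2;3 were also at 0 in WT C24, and so was CASP5, which was not tested. PLT1, a regulator of the root stem cell niche, had 0, 0.0633 and 0 CPM in WT C24, against 2.91, 2.48 and 2.77 CPM in WT Col, a ratio of depth-scaled summed counts, WT Col over WT C24, of 98.5 (exact 95% interval 27.0 to 818). CASP1, which builds the Casparian strip of the endodermis, had 0.112, 0.127 and 0.232 CPM in WT C24, against 11.2, 20.5 and 15.1 CPM in WT Col (log2 fold change -6.58, SE 0.42, adjusted p = 1.13e-06). Transcripts of this gene were thus present in every WT C24 library, at a low level. PYK10, a beta-glucosidase of root endoplasmic reticulum bodies, had 129, 118 and 119 CPM in WT C24, against 343, 453 and 304 CPM in WT Col (log2 fold change -1.59, SE 0.22, adjusted p = 0.000221). SHR and SCR, which pattern the endodermis but are also expressed in shoots, overlapped between the wild types (adjusted p = 0.659 and 0.585). Between the mutants, 15 of the 16 fallen genes were likewise lower in all lsm5 than in all lsm4 libraries. Of all genes that fell, 65.3% were. Over all called genes 62.9% differed the same way in the mutants without overlap and 4.37% the opposite way, the background for such counts below. How much of any other difference below goes with the amount of root in the samples was not tested.

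**Figure D2:**
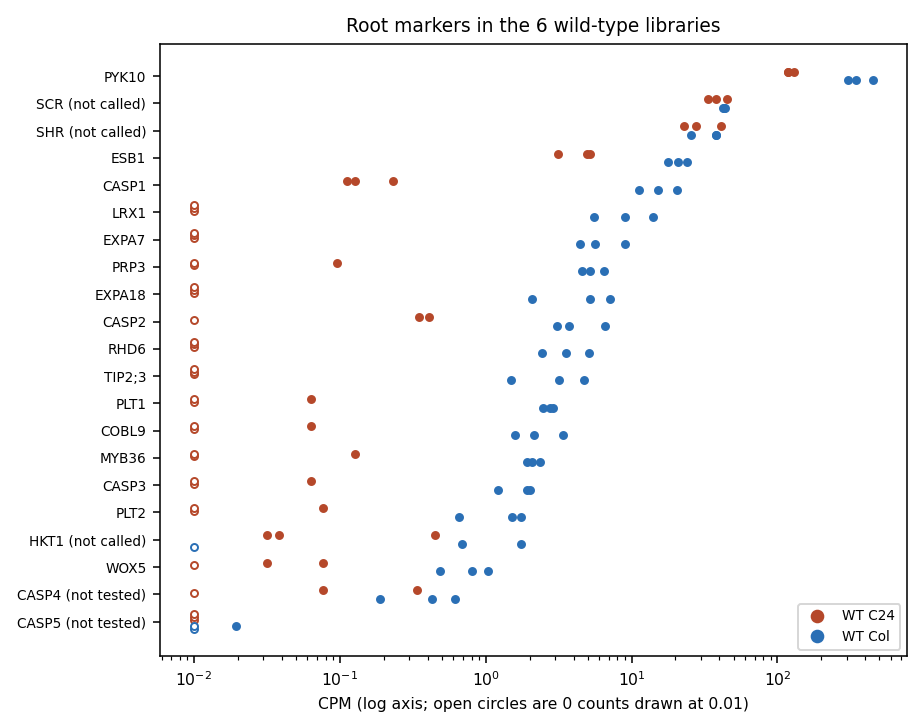
CPM (log axis) of 21 root markers (rows) in the 3 WT C24 (red) and 3 WT Col (blue) libraries; open circles are 0 counts, drawn at 0.01. SCR and SHR overlap, whereas LRX1, EXPA7, EXPA18, RHD6 and TIP2;3 have 0 counts in every WT C24 library.

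The xylem and secondary wall list fell as well, though less far: of 12 tested genes 9 fell and 0 rose, with a median of -1.48. CESA4, a cellulose synthase of the secondary wall, had 3.48, 2.25 and 1.08 CPM in WT C24, against 13.04, 13.04 and 10.8 CPM in WT Col (log2 fold change -2.45, SE 0.37, adjusted p = 0.00041), and its partner CESA7 had 3.25, 3.96 and 4.29 CPM in WT C24, against 16.6, 16.6 and 14.4 CPM in WT Col (log2 fold change -2.04, SE 0.24, adjusted p = 7.21e-05). XCP1 and XCP2, the xylem cysteine peptidases, had log2 fold changes of -1.49 (SE 0.22) and -1.47 (SE 0.20). The groups did not overlap for these 4 genes.

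Iron transport changed in opposite ways for uptake and storage. Plants on low iron switch on the ferric reductase FRO2 and the transporter IRT1 in the root epidermis through bHLH transcription factors, and plants with ample iron load it into ferritin in plastids. Of 24 tested iron genes, 18 fell, 5 rose, and the median was -3.08. IRT1 (AT4G19690, chr4:10707426-10709015) had 0.337, 0 and 0.232 CPM in WT C24, against 101, 161 and 106 CPM in WT Col (log2 fold change -9.51, SE 0.57, adjusted p = 7.33e-07). FRO2 had 1.29, 1.24 and 1.197 CPM in WT C24, against 51.1, 83.4 and 55.1 CPM in WT Col (log2 fold change -5.67, SE 0.28, adjusted p = 2.57e-07). In both genes every WT C24 library lay far below every WT Col library. The bHLH genes of the subgroup that acts with FIT1 went the same way. BHLH39 had 0.224, 0.127 and 0.154 CPM in WT C24, against 55.3, 134 and 58.6 CPM in WT Col (log2 fold change -8.97, SE 0.50, adjusted p = 5.18e-07). BHLH38 was 818-fold and BHLH100 388-fold lower, and BHLH101 was at 0 in WT C24, at least 178-fold lower. FIT1 itself, which needs them as partners, differed less, with 2.75, 0.855 and 0.965 CPM in WT C24, against 6.29, 7.16 and 3.66 CPM in WT Col (log2 fold change -1.95, SE 0.47, adjusted p = 0.00697); its call was lost only when a change of at least 1 on the log2 scale was required. The iron-deficiency ligase BTS had 50.1, 34.8 and 43.6 CPM in WT C24, against 289, 302 and 216 CPM in WT Col (log2 fold change -2.65, SE 0.24, adjusted p = 1.04e-05). BTS is known to be expressed in shoots too, and the part of root tissue in its fall was not tested. Of the nicotianamine synthases, which make an iron chelator for long-distance transport, NAS2 had 0.673, 0.380 and 0.309 CPM in WT C24, against 30.03, 31.5 and 21.9 CPM in WT Col, whereas NAS3 had 10.2, 7.38 and 14.3 CPM in WT C24, against 0, 0.0390 and 0 CPM in WT Col. NAS2 was 63.3-fold lower, and for NAS3 the ratio of depth-scaled summed counts, WT C24 over WT Col, was 458 (exact 95% interval 126 to 3790.1). NAS1 and NAS4 fell with NAS2. The size of some falls rested on single WT C24 libraries: the log2 fold change of IRT1 was -10.11 without WT C24 1 and -8.74 without WT C24 2, that of BHLH38 was -9.68, or -8.92 without WT C24 2, and that of FIT1 was -2.63 without WT C24 1.

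The ferritins stood the other way round. FER1 (chr5:227953-230051) had 473, 469 and 470.5 CPM in WT C24, against 21.4, 25.4 and 29.8 CPM in WT Col (log2 fold change 4.2, SE 0.23, adjusted p = 4.65e-07), and FER4 had 33.4, 25.8 and 39.2 CPM in WT C24, against 1.88, 1.21 and 1.46 CPM in WT Col (log2 fold change 4.49, SE 0.28, adjusted p = 1.13e-06). FER3 rose by less, with 34.2, 36.4 and 38.8 CPM in WT C24, against 24.8, 18.3 and 16.03 CPM in WT Col (log2 fold change 0.9, SE 0.21, adjusted p = 0.00638), a call lost only where a log2 change of at least 1 was required. In none of the 3 did the groups overlap. VIT1, the vacuolar iron transporter of seeds, was at 0.505, 0.665 and 0.502 CPM in WT C24 and at 0 in WT Col, at least 16.7-fold higher. The root markers had a median log2 fold change of -5.85, with 6 of 21 at 0 in WT C24. These markers moved with the uptake genes and against the ferritins, and their part in these results was not tested. In the mutants 22 of the 23 called iron genes differed in the same direction without overlap: IRT1 had 0, 0.195 and 0.141 CPM in lsm5, against 50.5, 65.4 and 65.8 CPM in lsm4, and FER1 had 547, 704 and 430.4 CPM in lsm5, against 21.0, 14.2 and 26.3 CPM in lsm4. Mutant CPM were scaled with all 12 columns and are used only to compare the mutants.

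Copper enzymes rose in WT C24 and a copper importer fell. CSD1 and CSD2, the cytosolic and plastid copper/zinc superoxide dismutases, and CCS, the chaperone that gives them copper, are repressed by miR398 when copper is short. CSD1 had 877, 1102 and 965 CPM in WT C24, against 30.03, 70.2 and 37.5 CPM in WT Col (log2 fold change 4.41, SE 0.35, adjusted p = 5.31e-06). CSD2 had 771, 924 and 849.5 CPM in WT C24, against 29.7, 65.2 and 45.2 CPM in WT Col (log2 fold change 4.18, SE 0.32, adjusted p = 4.05e-06), and CCS was 7.46-fold higher in WT C24. COPT2, a copper importer induced by low copper, had 14.6, 22.1 and 16.1 CPM in WT C24, against 25.7, 56.1 and 62.5 CPM in WT Col (log2 fold change -1.45, SE 0.31, adjusted p = 0.00357); its call was lost only at the required log2 change of at least 1. Over the list, 3 of 10 tested genes rose and 3 fell, or 5 without WT Col 2, with a median of -0.39. FSD1, the iron superoxide dismutase that stands in for the copper enzymes, had 75.5, 33.0 and 43.4 CPM in WT C24, against 127, 88.0 and 82.5 CPM in WT Col, fell (adjusted p = 0.0242) and lost its call without WT C24 2, WT C24 3 or WT Col 1, among others (highest adjusted p 0.821; here and below this is the highest over all alternatives run, the required log2 change included).

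Nitrogen genes were mixed, with 8 of 24 tested higher, 6 lower and a median of 0.14. NRT2.5, a nitrate transporter known from nitrogen-starved plants and old leaves, had 5.50, 8.84 and 8.42 CPM in WT C24, against 0, 0.0780 and 0.0385 CPM in WT Col (log2 fold change 7.0, SE 0.52, adjusted p = 3.39e-06). ASN1, an asparagine synthetase of sugar-starved and ageing leaves, had 523, 1035 and 1007 CPM in WT C24, against 9.38, 45.7 and 6.63 CPM in WT Col (log2 fold change 5.36, SE 0.70, adjusted p = 0.000153). Without WT Col 2 the log2 fold change of NRT2.5 was 7.86 and that of ASN1 6.75. NRT3.1, the partner of the high-affinity nitrate transporters, was 10.3-fold higher. The ammonium transporters parted: AMT1;1 had 471, 616 and 548 CPM in WT C24, against 149, 156 and 266 CPM in WT Col (log2 fold change 1.52, SE 0.27, adjusted p = 0.00105), whereas AMT1;3 had 1.12, 1.299 and 1.31 CPM in WT C24, against 11.3, 41.8 and 31.6 CPM in WT Col (log2 fold change -4.5, SE 0.45, adjusted p = 2.36e-05). AMT1;1 is known to be expressed in leaves as well as roots, and AMT1;3 mainly in roots. The part of root tissue in this split was not tested. The call for AMT1;1 was lost only at the required log2 change of at least 1. The nitrate reductases NIA1 and NIA2 were not called (adjusted p = 0.109 and 0.119). Between the mutants 12 of the 14 called nitrogen genes differed the same way without overlap, and 1 did so the opposite way.

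In the phosphate list 2 of 19 tested genes rose and 4 fell, shares at or below the background in both directions. The fallen genes act in uptake and in loading of the xylem in roots: PHO1 had 13.9, 20.8 and 16.5 CPM in WT C24, against 62.1, 121 and 54.3 CPM in WT Col (log2 fold change -2.21, SE 0.31, adjusted p = 0.000244), PHO1;H1 was 5.39-fold lower, and PHT1;1 and PHT1;2 fell too, whose near-identical sequences make the split of reads between them uncertain. The starvation markers SPX1, MGD3 and SQD2 overlapped between the wild types. The sulfur list had 7 of 10 tested genes lower and 0 higher, with a median of -1.46. SULTR1;2, the main root sulfate importer, had 8.08, 6.97 and 5.91 CPM in WT C24, against 35.7, 47.0 and 37.6 CPM in WT Col (log2 fold change -2.53, SE 0.22, adjusted p = 1.00e-05). LSU2, of a family induced by low sulfur, had 18.3, 13.1 and 9.46 CPM in WT C24, against 50.9, 29.6 and 71.2 CPM in WT Col (log2 fold change -1.89, SE 0.33, adjusted p = 0.00103). Both were without overlap.

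Flowering repressors differed gene by gene. FLC, the MADS repressor that vernalization silences, and its relatives FLM and MAF2 to MAF5 hold back flowering; FRI keeps FLC active, and Columbia is known to carry a loss-of-function FRI allele. FLC (AT5G10140, chr5:3173497-3179448) had 68.0, 60.1 and 73.8 CPM in WT C24, against 0.938, 1.36 and 1.85 CPM in WT Col (log2 fold change 5.55, SE 0.28, adjusted p = 2.57e-07). FLM (AT1G77080, chr1:28955637-28960096) had 0.337, 0.348 and 0.502 CPM in WT C24, against 20.2, 17.3 and 17.8 CPM in WT Col (log2 fold change -5.51, SE 0.31, adjusted p = 4.65e-07). The groups lay far apart in both genes, in opposite directions. MAF2 had 7.58, 13.9 and 7.95 CPM in WT C24, against 34.1, 35.7 and 32.8 CPM in WT Col (log2 fold change -1.79, SE 0.26, adjusted p = 0.000278), whereas MAF4 had 6.23, 8.55 and 6.45 CPM in WT C24, against 1.13, 2.26 and 1.16 CPM in WT Col (log2 fold change 2.16, SE 0.35, adjusted p = 0.000637). These neighbours in one cluster on chromosome 5 thus moved in different directions, and MAF3, which lies between them, overlapped (adjusted p = 0.832). MAF5 rose to 3.54, 2.502 and 3.75 CPM in WT C24, against 1.97, 1.68 and 1.54 CPM in WT Col, but lost its call without any of WT C24 1, WT C24 3, WT Col 2 and WT Col 3 (highest adjusted p 0.886). SVP, which represses flowering together with FLC, had 102, 99.6 and 119 CPM in WT C24, against 54.0, 51.0 and 61.2 CPM in WT Col (log2 fold change 0.95, SE 0.19, adjusted p = 0.0022). FRI did not differ by the test, at 6.90, 5.67 and 7.34 CPM in WT C24, against 5.82, 5.83 and 6.20 CPM in WT Col (adjusted p = 0.646). Over the list, 4 of 13 tested genes rose, 5 fell and the median was -0.09.

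Of the 4 AP2-type repressors in the list, 3 were called lower in WT C24. TOE2 had 21.3, 29.7 and 22.01 CPM in WT C24, against 51.6, 64.0 and 74.8 CPM in WT Col (log2 fold change -1.38, SE 0.22, adjusted p = 0.000573). TOE1 and SNZ were lower too, with log2 fold changes of -0.78 (SE 0.22) and -0.74 (SE 0.25), but the call of TOE1 was lost without WT C24 1, WT C24 3 or WT Col 3, and that of SNZ without any 1 of the 6 libraries (highest adjusted p 1 and 1). Over the list the falls numbered 3 in place of 5 without WT C24 1, WT C24 3 or WT Col 3. SMZ, the other AP2-type gene, had 2.53, 1.49 and 2.01 CPM in WT C24, against 2.06, 4.91 and 2.43 CPM in WT Col and was not called (log2 fold change -0.69, SE 0.41, adjusted p = 0.196). TEM1, a repressor of the RAV family, had 121, 234 and 195 CPM in WT C24, against 37.4, 75.1 and 152 CPM in WT Col and was not called (log2 fold change 1.05, SE 0.42, adjusted p = 0.0666), but it was called higher by DESeq2, with no filter on low counts, with a replicate block and without WT C24 1 or WT Col 3. The calls of SVP and TOE2 were lost only at the required log2 change of at least 1. In the mutants FLC had 27.9, 26.3 and 35.02 CPM in lsm5, against 0.112, 0.206 and 0.0564 CPM in lsm4, and FLM had 0.0691, 0.260 and 0.113 CPM in lsm5, against 18.01, 15.3 and 16.005 CPM in lsm4. Of the 9 called repressors 7 differed the same way in the mutants without overlap.

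Floral promoters were scarce. FT, TSF, LFY, AP1, CAL, AGL42 and SEP3 had too few counts to be tested, and FT stood at 0, 0.0633 and 0.347 CPM in WT C24, against 0, 0.663 and 0.347 CPM in WT Col. AGL24, a promoter that works with SOC1, had 23.5, 28.9 and 20.9 CPM in WT C24, against 9.95, 6.24 and 6.90 CPM in WT Col (log2 fold change 1.69, SE 0.25, adjusted p = 0.00035), with every WT C24 library above every WT Col library. SOC1, which FLC represses, had 6.62, 3.80 and 9.54 CPM in WT C24, against 11.4, 10.5 and 6.70 CPM in WT Col and was not called (adjusted p = 0.259). FD, the partner of FT, had 1.23, 1.84 and 1.43 CPM in WT C24, against 2.44, 3.72 and 4.05 CPM in WT Col (log2 fold change -1.19, SE 0.35, adjusted p = 0.0195), a call lost without WT C24 1, WT C24 3, WT Col 2 or WT Col 3 (highest adjusted p 0.455). CO and FUL were not called. Of the SPL genes that miR156 represses in young plants, SPL15 had 0.561, 0.602 and 0.849 CPM in WT C24, against 3.38, 4.27 and 5.70 CPM in WT Col (log2 fold change -2.73, SE 0.38, adjusted p = 0.000227) and SPL4 had 0.449, 1.14 and 1.27 CPM in WT C24, against 3.28, 3.86 and 3.62 CPM in WT Col (log2 fold change -1.88, SE 0.41, adjusted p = 0.00371). Both were lower in WT C24, which differed from WT Col in accession, age and medium together. SPL10 and SPL11 were higher in WT C24, by 0.96 (SE 0.33) and 0.85 (SE 0.28) on the log2 scale, and each lost its call without WT C24 1, WT C24 3, WT Col 2 or WT Col 3, and SPL10 without WT Col 1 too. SPL2, SPL3, SPL5, SPL6, SPL9 and the near-identical pair SPL13A and SPL13B were not called. The MIR156 and MIR172 precursors had few or no counts. The floral organ markers AP3, AG, SEP1 and SEP2 had too few counts to be tested, and PI and AP2 were not called.

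**Figure D3:**
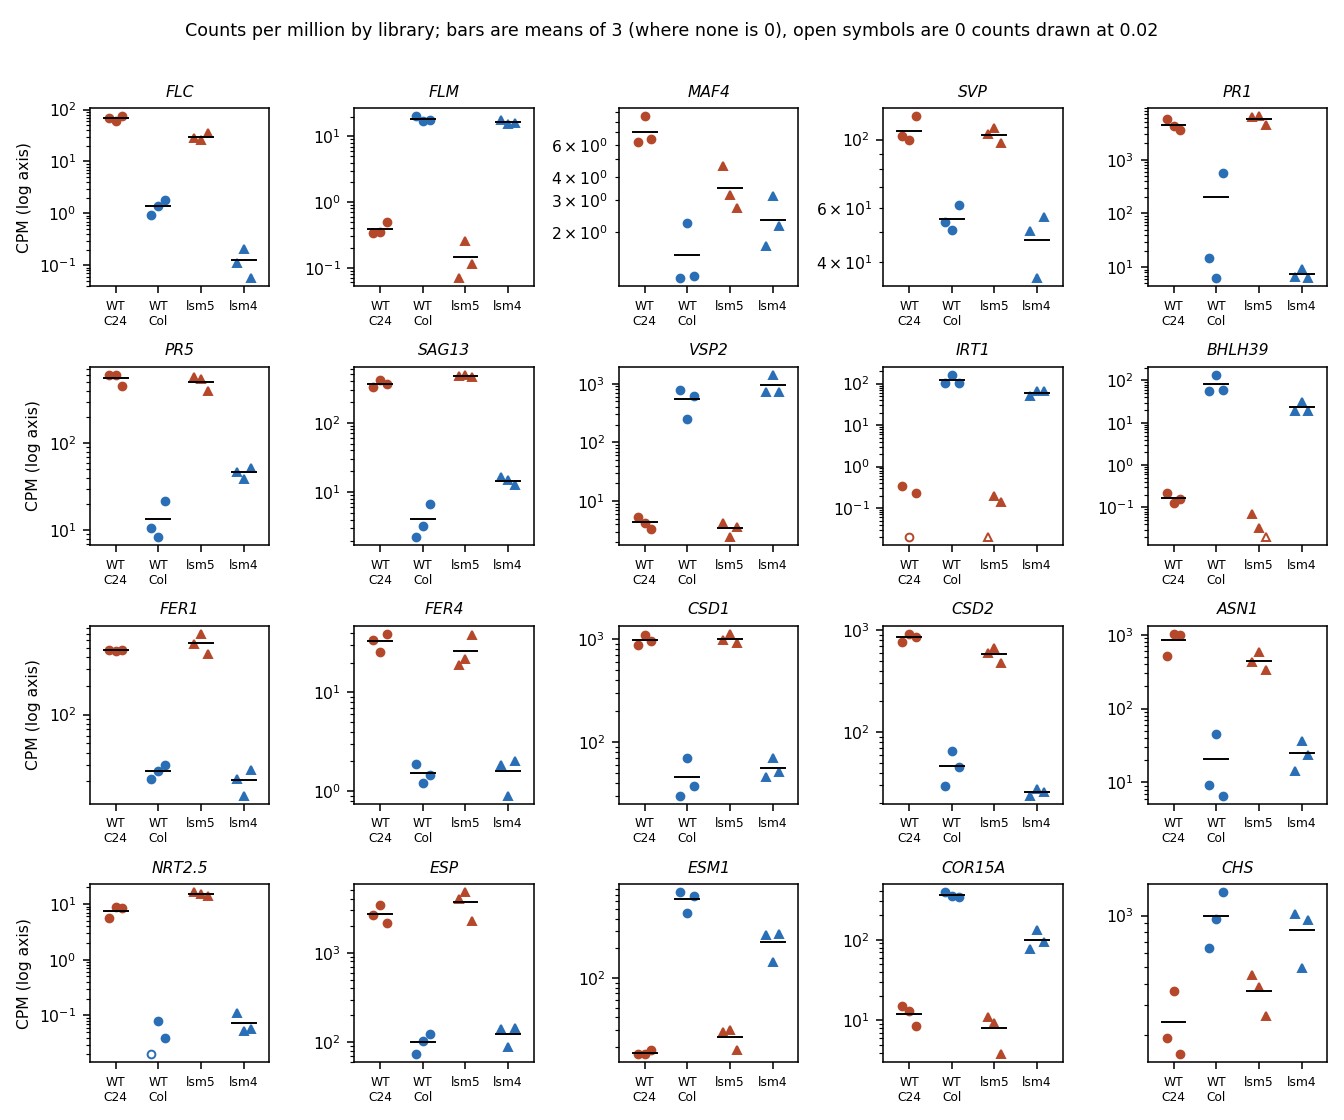
CPM (log axis, own range per gene) of 20 genes in WT C24, WT Col, lsm5 and lsm4; each point is 1 library, bars are means of 3 libraries and are left out where a library has 0 counts, and open symbols are 0 counts drawn at 0.02. FLC lies between 60.1 and 73.8 CPM in WT C24 and between 0.938 and 1.85 CPM in WT Col, and PR1 in WT Col 3 lies apart from WT Col 1 and 2.

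Salicylic acid (SA) defence genes rose in WT C24. SA made by ICS1 acts through NPR1 to switch on the pathogenesis-related genes PR1, PR2 and PR5, and EDS1 and PAD4 relay signals of intracellular immune receptors. Of 27 tested genes 25 rose and 0 fell, with a median of 3.2; the background was 19.5% higher. Summed over the list the libraries gave 8295 to 10782 CPM in WT C24 and 330.4 to 2458 CPM in WT Col. PR1 (AT2G14610, chr2:6241704-6242463) had 5739, 4221 and 3501 CPM in WT C24, against 15.02, 6.20 and 576 CPM in WT Col (log2 fold change 4.49, SE 1.32, adjusted p = 0.0183). WT Col 3 stood well above the other WT Col libraries in PR1 and still below every WT C24 library; without it the log2 fold change was 8.78. PR5 had 598, 603 and 452 CPM in WT C24, against 10.8, 8.40 and 21.7 CPM in WT Col (log2 fold change 5.33, SE 0.39, adjusted p = 2.94e-06), and PR2 had 444, 431 and 336 CPM in WT C24, against 15.2, 10.4 and 57.5 CPM in WT Col (log2 fold change 3.86, SE 0.56, adjusted p = 0.000282). WT Col 3 was the highest WT Col library in PR2 too, and without it the log2 fold change of PR2 was 5.01. Of the SA synthesis genes, ICS1 had 65.8, 40.003 and 74.0 CPM in WT C24, against 8.92, 5.65 and 5.36 CPM in WT Col (log2 fold change 3.2, SE 0.30, adjusted p = 1.52e-05). PBS3, which conjugates the ICS1 product to glutamate, had 47.4, 39.2 and 60.8 CPM in WT C24, against 1.03, 1.68 and 1.89 CPM in WT Col (log2 fold change 4.94, SE 0.29, adjusted p = 6.68e-07). SARD1, a regulator of ICS1, had 61.4, 45.9 and 72.0 CPM in WT C24, against 2.25, 0.507 and 2.505 CPM in WT Col (log2 fold change 5.2, SE 0.50, adjusted p = 1.80e-05). In none of these 3 did the groups overlap, and without WT Col 3 the log2 fold change of SARD1 was 5.8. FMO1, which makes the systemic signal N-hydroxypipecolic acid, had 22.8, 17.1 and 26.1 CPM in WT C24, against 0.563, 0.273 and 0.655 CPM in WT Col (log2 fold change 5.57, SE 0.38, adjusted p = 1.97e-06), also without overlap.

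The receptor NPR1 rose by less (1.72, SE 0.22), as did EDS1 (1.61, SE 0.33), whose call was lost only at the required log2 change of at least 1. ACD6, known for a hyperactive allele in some accessions, had 104, 77.9 and 90.9 CPM in WT C24, against 143, 35.7 and 223 CPM in WT Col and was not called (adjusted p = 0.371). PCC1 was the other gene not called, and its libraries did not overlap. PAD3 and CYP71A13, of the synthesis of the phytoalexin camalexin, were 6.56-fold and 6.83-fold higher. In the mutants all 25 differed in the same direction without overlap; PR1 had 6199, 6391 and 4381 CPM in lsm5, against 6.69, 9.07 and 6.23 CPM in lsm4. Over all called genes that share was 62.9%.

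NLR receptors, which detect pathogen effectors, were mixed, with 9 of 28 tested higher, 7 lower and a median of 0.18. RPM1 (AT3G07040, chr3:2225952-2229024), known to be deleted in some accessions, had 0, 0 and 0 CPM in WT C24, against 5.91, 4.48 and 4.01 CPM in WT Col, at least 113-fold lower (adjusted p = 1.68e-05). It was at 0 in lsm5 as well, against 4.24, 4.69 and 4.198 CPM in lsm4. AT4G19500 and its neighbour AT4G19510 had next to no counts in WT C24: AT4G19500 had 0, 0.0633 and 0 CPM in WT C24, against 21.8, 20.7 and 15.6 CPM in WT Col, a ratio of depth-scaled summed counts, WT Col over WT C24, of 728 (exact 95% interval 201 to 6017). AT4G19510 had 0.337, 0.0950 and 0.0772 CPM in WT C24, against 17.7, 11.4 and 9.52 CPM in WT Col (log2 fold change -6.37, SE 0.50, adjusted p = 5.15e-06), or -7.12 without WT C24 1. AT1G58602 had 6.90, 5.48 and 4.79 CPM in WT C24, against 99.9, 86.5 and 90.7 CPM in WT Col (log2 fold change -4.02, SE 0.23, adjusted p = 5.18e-07). HR3, of the RPW8-like family, was 20.8-fold higher in WT C24, and its neighbour HR4 was 4.06-fold lower. The helper receptors ADR1, ADR1-L1 and ADR1-L2, which serve many sensor NLRs, rose by 2.11, 2.03 and 1.64 on the log2 scale (SE 0.27, 0.24 and 0.23). NLR genes lie in clusters of similar copies, so reads can be split between neighbours, and sequence differences between the accessions can lower the counts of a gene in WT C24.

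Touch and rapid stress genes rose too, 12 of 14 tested and 0 lower, with a median of 2.29. TCH4, a cell wall xyloglucan enzyme, had 59.7, 53.3 and 106 CPM in WT C24, against 1.13, 5.36 and 3.47 CPM in WT Col (log2 fold change 4.37, SE 0.46, adjusted p = 3.28e-05). WRKY46, a defence regulator, had 7.24, 6.11 and 12.9 CPM in WT C24, against 0.188, 0.312 and 0.732 CPM in WT Col (log2 fold change 4.33, SE 0.49, adjusted p = 5.21e-05). TCH3, a calmodulin-like protein, and the zinc finger ZAT12 were 18.3-fold and 14.2-fold higher. WT Col 3 was the highest WT Col library in every tested gene of the list except TCH4 and ZAT12, and ERF104, at 41.8, 70.8 and 60.8 CPM in WT C24, against 4.505, 14.3 and 55.3 CPM in WT Col, overlapped through it (adjusted p = 0.142). Without it the log2 fold change of WRKY46 was 4.96. In the mutants 7 of the 12 differed the same way without overlap and 1 the opposite way, against 62.9% and 4.37% of all called genes.

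Leaf senescence genes were higher in WT C24, 11 of 12 tested, with 1 lower and a median of 3.17. SAG12, a cysteine protease of ageing leaves, had 8.98, 17.61 and 7.84 CPM in WT C24, against 0, 0.0195 and 0 CPM in WT Col, a ratio of depth-scaled summed counts, WT C24 over WT Col, of 1073 (exact 95% interval 192 to 42419). SAG13 had 328, 408 and 362 CPM in WT C24, against 2.25, 3.30 and 6.70 CPM in WT Col (log2 fold change 6.45, SE 0.40, adjusted p = 9.36e-07). The NAC regulators NAP and ORE1 were 45.9-fold and 9.54-fold higher, with NAP at 24.2, 14.5 and 37.3 CPM in WT C24, against 0.563, 0.292 and 0.886 CPM in WT Col and a log2 fold change of 5.52, or 6.12 without WT Col 3. SAG29, a sugar transporter, was the gene that fell, at 0.673, 1.08 and 1.004 CPM in WT C24, against 3.75, 12.99 and 8.09 CPM in WT Col (log2 fold change -3.17, SE 0.45, adjusted p = 0.000267). SA is also known to induce SAG13 and WRKY53. The SA list moved in the same direction as the senescence list, and a link between them was not tested. Of the 12 called genes 11 differed the same way in the mutants without overlap.

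Jasmonate genes split within the list: 6 of 16 tested rose and 6 fell, with a median of 0.54. The vegetative storage proteins, which jasmonate induces, were low in WT C24: VSP2 had 5.39, 4.31 and 3.28 CPM in WT C24, against 779, 249 and 621 CPM in WT Col (log2 fold change -7.0, SE 0.47, adjusted p = 1.83e-06), and VSP1 was 40.1-fold lower. LOX2, the plastid lipoxygenase of jasmonate synthesis, had 896, 898 and 640.3 CPM in WT C24, against 3185, 2106 and 3782 CPM in WT Col (log2 fold change -1.9, SE 0.30, adjusted p = 0.000569), and AOS and AOC2 were lower with it, calls lost only at the required log2 change of at least 1. The repressor JAZ1 went the other way, with 33.1, 23.596 and 62.5 CPM in WT C24, against 6.10, 6.24 and 7.51 CPM in WT Col (log2 fold change 2.58, SE 0.34, adjusted p = 0.000151), and JAZ10, LOX3 and LOX4 rose as well, LOX3 losing its call at that requirement. The groups overlapped in none of these. AOC1 and AOC2 are near-identical copies, so their split is uncertain. Of the 12 called genes 6 differed in the same direction in the mutants without overlap and 5 in the opposite direction, whereas over all called genes the opposite share was 4.37%. VSP2 in the mutants had 4.22, 2.44 and 3.66 CPM in lsm5, against 732, 1411 and 721 CPM in lsm4.

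Glucosinolates, the mustard oil precursors of the Brassicaceae, are cut by myrosinase when tissue is damaged, and accessions differ in the side chain and in the product. Of 36 tested genes 11 rose, 8 fell and the median was 0.23. ESP, which turns the product towards nitriles and epithionitriles, had 2622, 3445 and 2142 CPM in WT C24, against 73.4, 104 and 122.6 CPM in WT Col (log2 fold change 4.77, SE 0.34, adjusted p = 2.40e-06). ESM1, which works against that turn, had 16.8, 16.8 and 18.5 CPM in WT C24, against 739, 454 and 683 CPM in WT Col (log2 fold change -5.17, SE 0.28, adjusted p = 3.96e-07). Both genes parted the wild types by a wide gap, in opposite directions. AOP2, which makes alkenyl side chains and is known to be non-functional in Columbia, had 129, 86.3 and 104 CPM in WT C24, against 6.76, 11.3 and 5.51 CPM in WT Col (log2 fold change 3.74, SE 0.30, adjusted p = 6.08e-06). MYB122, a regulator of indole glucosinolates, had 4.096, 1.77 and 3.205 CPM in WT C24, against 0, 0.0195 and 0.116 CPM in WT Col (log2 fold change 5.87, SE 0.72, adjusted p = 9.87e-05), with a log2 fold change of 5.17 without WT Col 2 and 7.21 without WT Col 3. The flavin monooxygenases FMO-GSOX2, FMO-GSOX3 and FMO-GSOX4, which oxidise side chains, were 3.76-fold, 5.63-fold and 3.91-fold lower. The core enzymes CYP79F1, CYP79F2, CYP83A1 and MAM1 and the myrosinases TGG1 and TGG2 were not called. In the mutants ESP had 3956, 4719 and 2259 CPM in lsm5, against 139, 89.3 and 143 CPM in lsm4. Of the 19 called genes 13 differed the same way in the mutants without overlap, near the 62.9% of all called genes.

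Drought and cold genes were lower in WT C24, 14 of 24 tested with 1 higher and a median of -1.60. Without WT C24 3, WT Col 2 or WT Col 3, 0 were higher. Some sizes rested on WT Col 2: without it the log2 fold change of RD29B was -0.43 in place of -3.19, and that of RAB18 -1.56 in place of -2.37. Without WT C24 2 that of RD29B was larger, at -3.85. COR15A, a cold-induced plastid protein, had 15.04, 13.1 and 8.42 CPM in WT C24, against 386, 351 and 343 CPM in WT Col (log2 fold change -4.89, SE 0.28, adjusted p = 5.34e-07). GOLS2, a galactinol synthase induced by drought, had 0.505, 0.570 and 0.695 CPM in WT C24, against 12.1, 24.2 and 19.6 CPM in WT Col (log2 fold change -4.97, SE 0.35, adjusted p = 2.50e-06). XERO2, a dehydrin, was 21.7-fold lower and RD29A, a marker of both stresses, 15.3-fold lower. None of these 4 overlapped. The abscisic acid (ABA) phosphatases ABI1, ABI2 and HAB1 were not called, and neither was NCED3, the ABA synthesis enzyme, whose WT Col 2 value of 13.4 CPM lay above the other libraries. Of the 15 called genes 10 differed the same way in the mutants without overlap and 2 the opposite way, against 62.9% and 4.37% of all called genes.

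Flavonoid and anthocyanin synthesis was lower in WT C24, 17 of 20 tested with 1 higher and a median of -1.96. CHS, the entry enzyme, had 194, 363 and 154 CPM in WT C24, against 643, 955 and 1366 CPM in WT Col (log2 fold change -2.06, SE 0.37, adjusted p = 0.0012). UGT79B1, which decorates anthocyanins, had 0.954, 2.82 and 1.47 CPM in WT C24, against 43.5, 28.5 and 50.8 CPM in WT Col (log2 fold change -4.5, SE 0.39, adjusted p = 8.38e-06). Of the regulators, MYB12, which drives flavonols, had 0.673, 0.380 and 0.309 CPM in WT C24, against 3.28, 9.57 and 7.36 CPM in WT Col (log2 fold change -3.96, SE 0.49, adjusted p = 9.82e-05), and TT8, which drives the late genes, had 0.898, 1.33 and 0.309 CPM in WT C24, against 7.23, 5.93 and 16.2 CPM in WT Col (log2 fold change -3.51, SE 0.53, adjusted p = 0.000403). In these 4 genes the wild types did not overlap. MYBL2, a repressor of the path, was the gene that rose, with 22.7, 16.2 and 37.7 CPM in WT C24, against 10.2, 10.4 and 6.59 CPM in WT Col (log2 fold change 1.5, SE 0.32, adjusted p = 0.0034); its call was lost only at the required log2 change of at least 1. In the mutants 14 of the 18 called genes differed the same way without overlap, and CHS had 447, 383 and 258 CPM in lsm5, against 1025, 496 and 942 CPM in lsm4.

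Low-oxygen genes fell in 7 of 15 tested cases, or 4 without WT Col 2, and rose in 3, with a median of -0.85. PDC1, a pyruvate decarboxylase of fermentation, had 3.59, 1.71 and 3.17 CPM in WT C24, against 15.9, 51.8 and 14.6 CPM in WT Col (log2 fold change -3.31, SE 0.50, adjusted p = 0.00041), and ADH1, the alcohol dehydrogenase, was 5.11-fold lower. The oxygen sensor PCO2 was 7.99-fold lower and SUS1, a sucrose synthase, 3.08-fold higher. WT Col 2 was the highest library in PDC1, ADH1 and PCO2, and the calls of those genes held without it, with log2 fold changes of -2.43 for PDC1 and -2.36 for PCO2. Cuticle genes fell in 8 of 17 tested cases and rose in 1, with a median of -0.48. CER1, which makes wax alkanes, had 15.8, 13.1 and 12.7 CPM in WT C24, against 107, 97.9 and 139.8 CPM in WT Col (log2 fold change -3.05, SE 0.22, adjusted p = 3.25e-06), and CYP86A4, a cutin enzyme, was 6.12-fold lower. In the mutants 2 of the 9 called cuticle genes differed the same way without overlap and 2 the opposite way. CER6, an elongase, rose (adjusted p = 0.0157), a call lost only at the required log2 change of at least 1.

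Of 41 tested nuclear photosynthesis genes 4 rose and 4 fell, or 2 without WT C24 1 or WT C24 3 and 9 without WT C24 2, with a median of -0.13, against 19.5% rising and 21.6% falling among all genes. HEMA1, the entry enzyme of chlorophyll synthesis, had 221, 160.0 and 247 CPM in WT C24, against 24.6, 35.8 and 17.3 CPM in WT Col (log2 fold change 3.01, SE 0.30, adjusted p = 2.21e-05). Of the light-harvesting genes, LHCB4.3 had 343, 482 and 333 CPM in WT C24, against 79.1, 103 and 172 CPM in WT Col (log2 fold change 1.71, SE 0.30, adjusted p = 0.00102), whereas LHCB4.2, another gene for the same antenna, had 538, 1133 and 558 CPM in WT C24, against 2264, 2196 and 2908 CPM in WT Col (log2 fold change -1.72, SE 0.34, adjusted p = 0.00189). These paralogs moved in opposite directions and LHCB4.1 was not called (adjusted p = 0.983). The RBCS genes of the small subunit of Rubisco and LHCB1.1 to LHCB1.5, whose copies are close enough to share reads, were not called. Cell division genes fell in 9 of 22 cases and rose in 0, with a median of -0.62: TSO2, which makes nucleotides for DNA, had 27.0, 16.7 and 35.9 CPM in WT C24, against 104, 82.8 and 83.0 CPM in WT Col (log2 fold change -1.76, SE 0.27, adjusted p = 0.000446). MCM2, of the replication helicase, and the cytokinesis syntaxin KN were 2.53-fold and 2.41-fold lower, calls lost only at the required log2 change of at least 1.

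Clock genes rose in 9 of 25 tested cases and fell in 3, or in 0 without WT C24 1, WT C24 3 or WT Col 2, with a median of 0.48. COR27, an evening gene that cold induces, had 34.7, 21.8 and 36.8 CPM in WT C24, against 10.1, 3.08 and 2.16 CPM in WT Col (log2 fold change 2.69, SE 0.49, adjusted p = 0.00127), or 3.55 without WT Col 1. PRR5 and TOC1, of the evening repressors, were 2.79-fold and 2.01-fold higher, calls lost only at the required log2 change of at least 1. The morning genes CCA1 and LHY overlapped. The labels used here give no hour of harvest, and the plants grew in continuous light. Among 12 tested stomatal genes 4 fell, or 2 without WT C24 1 or WT C24 3, and 0 rose: the guard cell potassium channel KAT1 had 0.842, 0.380 and 0.849 CPM in WT C24, against 3.57, 4.41 and 4.05 CPM in WT Col (log2 fold change -2.57, SE 0.40, adjusted p = 0.000501), and the kinase OST1 was 3.23-fold lower. Of 11 tested heat shock genes 2 rose, or 1 without any library but WT Col 1, and 3 fell, and the small heat shock proteins HSP17.4 and HSP17.6II overlapped. SESA2, a seed storage protein, was at 0 in WT C24 and at 0.563, 3.39 and 0.809 CPM in WT Col, at least 57.4-fold lower, with WT Col 2 the highest.

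Few of the splicing and LSM genes themselves were called. Of 26 tested SR proteins and splicing regulators, which bind exons and splice sites, 5 fell and 0 rose; 8 fell without WT C24 2 and 10 without WT Col 1. SR34B had 5.72, 9.19 and 7.84 CPM in WT C24, against 17.3, 29.3 and 33.6 CPM in WT Col (log2 fold change -1.82, SE 0.29, adjusted p = 0.00053), and RS31A was 2.65-fold lower, a call lost only at the required log2 change of at least 1. Of 11 LSM genes 2 rose, both for the subunit LSM6: LSM6A by 1.11 (SE 0.36) and LSM6B by 1.05 (SE 0.33) on the log2 scale. The libraries of LSM6A overlapped, and both calls were lost without WT C24 1, WT C24 3 or WT Col 3, that of LSM6A without WT Col 2 too (highest adjusted p 0.58 and 0.673). LSM4 had 47.9, 55.9 and 43.6 CPM in WT C24, against 40.4, 47.2 and 68.8 CPM in WT Col (adjusted p = 0.786), and LSM5 had 19.6, 12.7 and 15.3 CPM in WT C24, against 12.4, 8.76 and 11.3 CPM in WT Col (adjusted p = 0.0907). The other 7 LSM genes were not called.

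The genes with the largest changes were taken, whether in a list or not, among called genes with at least 5 CPM in the higher wild type, more than 3 counts in the lower one and no overlap. The 8 largest rises were AT4G07965, AT3G48640, CCOAMT, AOX1D, NHL10, CYP82C2, NRT2.5, which is in the nitrogen list, and SUC7. AT4G07965, of uncharacterized product, had 40.4, 63.2 and 55.6 CPM in WT C24, against 0.0938, 0.0585 and 0.0385 CPM in WT Col (log2 fold change 9.75, SE 0.38, adjusted p = 7.24e-08). AOX1D, an alternative oxidase of mitochondria, had 30.1, 32.3 and 29.9 CPM in WT C24, against 0.0938, 0.253 and 0.193 CPM in WT Col (log2 fold change 7.17, SE 0.32, adjusted p = 1.56e-07). NHL10, a defence and senescence marker, had 33.6, 32.3 and 37.3 CPM in WT C24, against 0.282, 0.156 and 0.347 CPM in WT Col (log2 fold change 7.15, SE 0.33, adjusted p = 1.87e-07). Each was under 1 CPM in every WT Col library. CYP82C2, which hydroxylates a cyanogenic defence compound, had 13.4, 18.5 and 11.3 CPM in WT C24, against 0, 0.195 and 0 CPM in WT Col (log2 fold change 7.03, SE 0.60, adjusted p = 7.62e-06), and CCOAMT, a caffeoyl-CoA methyltransferase by its annotation, had 14.1, 9.34 and 13.1 CPM in WT C24, against 0.0938, 0.0585 and 0 CPM in WT Col (log2 fold change 7.93, SE 0.52, adjusted p = 1.56e-06). Without WT Col 2 the log2 fold change was 11.33 for CYP82C2, 10.31 for SUC7 (6.92 with all libraries) and 8.07 for AT3G48640 (8.98 with all, 11.06 without WT Col 3). In the mutants AOX1D had 121, 149 and 146 CPM in lsm5, against 0.225, 0.129 and 1.04 CPM in lsm4.

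The 8 largest falls were CXC750, AT3G54580, AT1G25098, SADHU1-1, AT1G23720, AT3G28550, AT1G25175 and AT4G16870. CXC750, annotated as ECS1, had 0.0561, 0.190 and 0 CPM in WT C24, against 439, 153 and 326 CPM in WT Col (log2 fold change -11.63, SE 0.67, adjusted p = 5.73e-07). AT3G54580, a proline-rich extensin-like protein, had 0.0561, 0.0950 and 0 CPM in WT C24, against 81.2, 125 and 157 CPM in WT Col (log2 fold change -11.04, SE 0.51, adjusted p = 1.78e-07), and AT1G23720 and AT3G28550, of the same product, fell with log2 fold changes of -10.03 and -10.03. The fitted sizes rest on few WT C24 counts, 4 in all for AT1G23720: without WT C24 2 the log2 fold change was -13.61 for AT1G23720, -12.07 for AT3G54580 and -13.4 for CXC750. Without that library it was also -10.84 for AT4G16870 (-9.82 with all) and -10.11 for AT1G25098 (-10.87 with all, -12.3 without WT C24 1). Extensins are wall proteins, several of them of root hairs. SADHU1-1, annotated under the name of a retroelement family of Arabidopsis, had 0.224, 0.158 and 0.116 CPM in WT C24, against 185, 224 and 248 CPM in WT Col (log2 fold change -10.38, SE 0.33, adjusted p = 4.23e-08). AT1G25098 and AT1G25175 belong to a set of near-identical copies on chromosome 1, so their counts are uncertain as to copy. Every one of the 8 had fewer than 1 CPM in each WT C24 library and at least 39.8 CPM in each WT Col library.

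A further set of genes was nearly without counts in one wild type. With at most 3 counts summed over the group and at least 5 CPM on average in the other wild type, 86 genes were one-sided in WT C24 and 17 in WT Col. Of the 86, 39 had 0 counts, 64 were protein-coding, 17 were pseudogenes (transcribed ones included), 8 had extensin in their product and 5 were list members. Of the 17 genes one-sided in WT Col, 5 had 0 counts, 12 were protein-coding and 5 were pseudogenes. Among all 20269 tested genes, 19505 were protein-coding, 294 were pseudogenes (transcribed ones included) and 40 had extensin in their product. The lists held 559 genes. In WT C24, AT2G11240, a pseudogene (chr2:4477686-4483748), had 0.0561, 0 and 0 CPM in WT C24, against 153, 139 and 136 CPM in WT Col, a ratio of depth-scaled summed counts, WT Col over WT C24, of 10516 (exact 95% interval 1887 to 415394). CYP82C4, a cytochrome P450 known from iron-deficient roots, had 0, 0.0317 and 0 CPM in WT C24, against 92.3, 111 and 94.9 CPM in WT Col, a ratio of 7828 (exact 95% interval 1405 to 309219). AT3G12900, annotated as a 2-oxoglutarate and Fe(II)-dependent oxygenase, had 0, 0 and 0 CPM in WT C24, against 37.7, 99.8 and 43.9 CPM in WT Col, at least 1902-fold lower. AT4G34881 was at 0 in WT C24 and at 65.8, 84.7 and 58.9 CPM in WT Col, at least 1877-fold lower. The WT Col libraries were close to each other in all but AT3G12900, where WT Col 2 was highest.

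In the other direction AT5G15360 had 59.2, 81.9 and 60.4 CPM in WT C24, against 0, 0.0195 and 0.0385 CPM in WT Col, a ratio of depth-scaled summed counts, WT C24 over WT Col, of 3039 (exact 95% interval 841 to 25098). AT4G29200, a beta-galactosidase related protein by its annotation, had 55.5, 38.4 and 72.5 CPM in WT C24, against 0, 0 and 0 CPM in WT Col, at least 1586-fold higher. MIOX4, a myo-inositol oxygenase, had 9.20, 4.56 and 17.95 CPM in WT C24, against 0, 0.0390 and 0 CPM in WT Col, a ratio of 451 (exact 95% interval 124 to 3732), with WT C24 2 the lowest. Some one-sided genes were neighbours: 6 runs of 2 genes each with few counts in WT C24, among them AT1G05240 and AT1G05250 (chr1:1521137-1527234) and AtPP2-A8 and AtPP2-A6 (chr5:18187630-18193207). In 4 of the 6 runs the annotated genes overlap, so they can share reads. AT1G05240 and AT1G05250 do not overlap but had nearly the same summed counts, 764 and 766 in WT Col and 232 each in lsm4. Those of AtPP2-A8 and AtPP2-A6 differed, with 1755 and 1507 in WT Col. AT4G09200 and AT4G09310, in none of the runs, had equal sums in every group, 1754 in WT Col and 2966 in lsm4. Some one-sided genes may thus hold the same reads, and how many do was not tested. None of the 17 were neighbours.

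The mutants gave a second look at these genes. All 86 had more than 3 counts in lsm4, and 63 had at most 3 in lsm5; all 17 had more than 3 in lsm5, and 5 had at most 3 in lsm4. AT2G11240 summed to 12 counts in lsm5 and 15662 in lsm4. Requiring 0 counts left 39 and 5 genes, whereas lowering the level in the other wild type to 1 CPM gave 287 and 86.

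**Figure D4:**
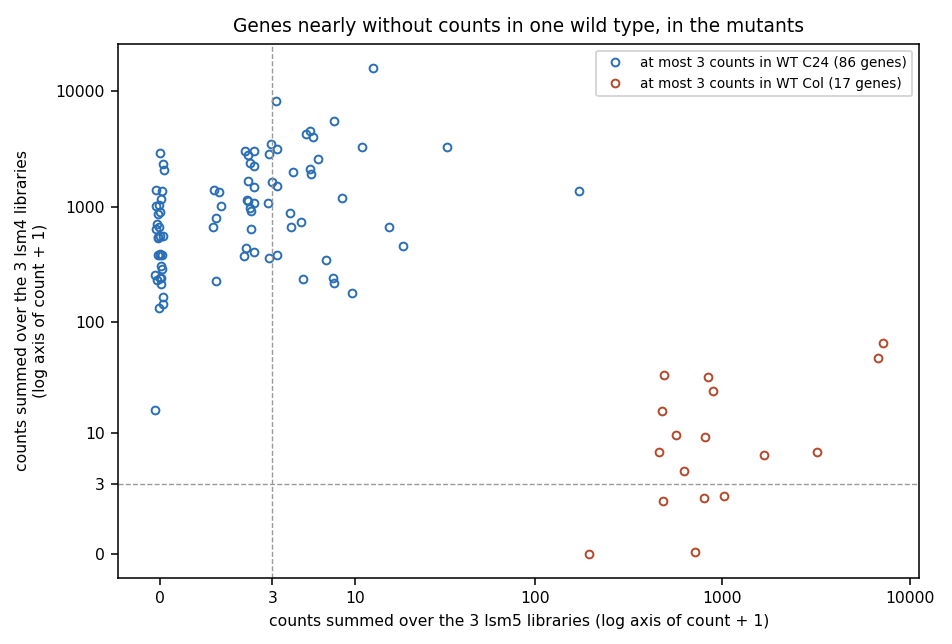
Counts summed over the 3 lsm5 libraries (x axis) and the 3 lsm4 libraries (y axis), on log axes of count + 1, for the 86 genes with at most 3 counts in WT C24 (blue) and the 17 with at most 3 counts in WT Col (red); dashed lines mark 3 counts and points are shifted slightly so as not to hide each other. All blue points lie above 3 counts in lsm4, and 63 lie at 3 or fewer in lsm5.

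Introns were tested relative to their host gene, with the host's log count in that library as the offset. A change that the intron and its host share then drops out, whereas a change of the host count alone enters with the opposite sign. Relative to the host gene, 65 of 5392 introns (1.21%) rose in WT C24 and 297 (5.51%) fell, together 6.71%, with a median log2 fold change of -0.16. The called introns lay in 331 genes, 165 of which were not called as genes. Called introns that fell were longer, with a median width of 234 bases, against 126 for those that rose and 112 for the rest, and 39.4% of them overlapped an annotated exon, against 30.8% and 21.7%. With only introns that overlap no exon, 215 were called. The count rested on single libraries: without WT C24 1, 2 or 3 it was 219, 677 and 195, without WT Col 2 or 3 it was 146 and 235, and without both libraries that stood apart it was 1530, of which 357 were among the 362. The split between directions moved with it: 202 rose and 475 fell without WT C24 2, 127 rose and 377 fell without WT Col 1, and 600 rose and 930 fell without both libraries that stood apart, so that falls made up 82.0% of the 362 calls and 60.8% of the 1530.

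The densities given next are the counts per base of an intron or bin as a percentage of the counts per base of its gene. Some of these densities pass 100%, in short and long features alike; how reads were assigned to features was not given in the sources used here, and densities are compared only between libraries. For 34 called introns WT C24 had no count at all; all 34 had more than 3 counts in lsm4, 28 had at most 3 in lsm5, and 20 had 0 there. CP5 intron 1 (chr1:24047309-24047380, 72 bases, within the coding region), in a gene for a lipid transport superfamily protein, had 0, 0 and 0% in WT C24, against 9.74, 14.7 and 13.6% in WT Col. It was at least 129-fold lower (adjusted p = 1.65e-05), with 0 counts in WT C24 and 558 in WT Col, and the host gene was not called (log2 fold change -0.23, adjusted p = 0.554). The first intron of SBPASE (chr3:20709754-20709842), sedoheptulose-bisphosphatase of the Calvin cycle, had 0, 0 and 0% in WT C24, against 5.51, 6.44 and 6.01% in WT Col. This was at least 44.7-fold lower (adjusted p = 9.41e-05) in a host that was not called (adjusted p = 0.818); lsm5 had 0 counts and lsm4 had 136.

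Other introns at 0 in WT C24 were AT5G45430 intron 1, in a protein kinase gene, at least 54.3-fold lower, AT1G27385 intron 4, at least 70.4-fold lower, and AT1G06630 intron 6 of an F-box gene, at least 40-fold lower. The named introns of AT5G45430 and AT1G27385 overlap an annotated exon. AT1G06630 intron 6 begins with GA in the reference. AT1G24880 intron 1 was also at 0, at least 14.4-fold lower, but its gene has near-identical copies, and bin 3 of the copy AT1G25054 had nearly the same counts. In AT4G16900, a TIR-NBS-LRR gene that had 34 to 43 counts in the WT C24 libraries, intron 2 was at least 6.37-fold lower.

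Introns of genes in the lists moved with or against their host. LOX2 intron 1 (chr3:16525789-16526117, 329 bases, overlapping an annotated exon) had 0, 0.183 and 0.364% in WT C24, against 5.56, 10.01 and 9.95% in WT Col (log2 fold change -5.52, SE 0.52, adjusted p = 4.05e-05). LOX2 itself fell, and the intron fell further, by 6.23 on the log2 scale without WT C24 3. FER1 intron 7 (chr5:229198-229286, overlapping an annotated exon) had 3.596, 3.13 and 4.72% in WT C24, against 28.01, 75.9 and 74.3% in WT Col (log2 fold change -4.07, SE 0.42, adjusted p = 8.22e-05). FER1 rose 18.4-fold while the summed counts of this intron were 84 counts in WT C24 and 102 in WT Col, so the count of the intron did not follow the gene. The same held for CYP71A13 intron 1, with 2.65, 1.83 and 3.01% in WT C24, against 25.6, 33.7 and 23.9% in WT Col (log2 fold change -3.53, SE 0.41, adjusted p = 0.000211) in a host that rose. CYP71A13 intron 1 overlaps an annotated exon too. CSD1 intron 8 was 4.25-fold lower relative to its host (adjusted p = 0.00516), a call lost only at the required log2 change of at least 1. KIN2 intron 1 went the other way: with 10.7, 7.52 and 7.35% in WT C24, against 1.83, 0.864 and 0.827% in WT Col (log2 fold change 2.89, SE 0.39, adjusted p = 0.000533) it rose relative to its host, a cold-induced gene that fell 9.29-fold. The summed counts of this intron were 141 in WT C24 and 173 in WT Col. KIN2 and KIN1 are close copies. AT1G58602 intron 1 (7384 bases, overlapping an annotated exon) fell with its NLR host, at a ratio of host-scaled summed counts, WT Col over WT C24, of 54.0 (exact 95% interval 9.66 to 2133). Intron 6 of the same gene rose relative to the host (log2 fold change 4.3, SE 0.33, adjusted p = 9.02e-06). The summed counts of intron 6 were 200 in WT C24 and 189 in WT Col, while the host had a log2 fold change of -4.02. The introns of ELF3, ESP, GLN2, SAG21, EPFL9 and SULTR1;2 that were called lost their calls without 1 or more single libraries (highest adjusted p 0.364, 0.199, 0.114, 1, 0.387 and 0.183, in that order). Those of ESP and SULTR1;2 overlap an annotated exon.

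Among introns that rose, AT1G35680 intron 3 (chr1:13209818-13209925, 108 bases, within the coding region), in a gene for ribosomal protein L21, had 44.1, 69.7 and 43.7% in WT C24, against 0.762, 1.63 and 2.48% in WT Col (log2 fold change 4.99, SE 0.42, adjusted p = 1.65e-05). The host was not called (log2 fold change -0.23, adjusted p = 0.691), and the mutants showed the same split, with 81.3, 70.4 and 36.2% in lsm5, against 2.19, 2.58 and 0.607% in lsm4. AT1G76140 intron 10, in a prolyl oligopeptidase gene, had 235, 134 and 289.7% in WT C24, against 0, 6.10 and 19.0% in WT Col (log2 fold change 4.68, SE 0.58, adjusted p = 0.000321). AT1G73750 intron 7, in an alpha/beta hydrolase gene, was 11.6-fold higher and TRX2 intron 1, in a thioredoxin gene, 18.4-fold higher. AT3G26850 intron 1 rose (log2 fold change 3.73, SE 0.32, adjusted p = 2.16e-05) but overlaps an annotated exon. The log2 fold change of AT1G76140 intron 10 was 5.53 without WT Col 3, and that of TRX2 intron 1 was 4.2, or 5.28 without WT Col 2. All of these introns were without overlap between the wild types, which the rule for naming them required. Over all tested introns, 26.6% were without overlap.

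The same host-scaled test of AS bins was used, and 27 of 2778 (0.972%) rose in WT C24 and 108 (3.89%) fell, together 4.86%; the median log2 fold change was -0.02. By event type, retained introns (IR) had 5 higher and 39 lower of 706 tested, alternative 3′ splice sites 12 and 21 of 965, alternative 5′ splice sites 2 and 12 of 430, skipped exons (ES) 2 and 7 of 246, and bins of multiple events 6 and 29 of 431. Without WT C24 1, 2 or 3 the count called was 72, 536 and 66, without WT Col 2 or 3 it was 44 and 58, and without both libraries that stood apart it was 1158, which held all 135. The excess of falls went with the libraries used: 241 bins rose and 295 fell without WT C24 2, 58 rose and 138 fell without WT Col 1, and 586 rose and 572 fell without both libraries that stood apart, so that falls made up 80.0% of the 135 calls and 49.4% of the 1158. For 27 called bins WT C24 had 0 counts, and all 27 had more than 3 in lsm4, 25 at most 3 in lsm5 and 20 had 0 there.

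The 4 bases of AT4G16830 bin 4, TGAG, are an alternative 3′ splice site bin in a gene for an mRNA binding family protein. The bin had 0 counts in WT C24 and 2446 in WT Col, at least 357-fold lower (adjusted p = 9.42e-06), whereas the gene had 1287 to 2978 counts in each WT C24 library. In the mutants it had 0 counts in lsm5 and 1913 in lsm4. The 18 bases of AT5G46250 bin 13, in an RNA-binding protein gene, had 0 counts in WT C24 and 669 in WT Col, at least 158-fold lower (adjusted p = 0.000121) in a host that was not called, and 0 counts in lsm5 and 603 in lsm4. In SR34B, an SR splicing factor, the 10 bases of bin 10 had 0 counts in WT C24 and 112 in WT Col, at least 8.68-fold lower (adjusted p = 0.0154). That call was lost without WT Col 2 or WT Col 3 (highest adjusted p 0.104), and the mutants had 0 counts in lsm5 and 132 in lsm4. In all 3 bins the printed reference ends the stretch before the bin, and the bin itself, with AG. ATPGLP1 bin 3, in a phosphoglycolate phosphatase gene, was at least 71.1-fold lower, but its gene has a near-identical copy.

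Among bins that rose, the 9-base skipped exon of ATCWINV1, a cell wall invertase, is the printed ATCCTAATG. Invertases of plants are known for a very short exon that codes for part of their catalytic motif. The bin had 103 counts in WT C24 and 0 in WT Col, at least 6.38-fold higher (adjusted p = 0.0228), with 289 counts in lsm5 and 0 in lsm4. The host rose too (log2 fold change 2.75, adjusted p = 5.03e-06), and had 181 to 1253 counts in the WT Col libraries. The call was lost without WT C24 1, WT C24 3, WT Col 2 or WT Col 3 (highest adjusted p 0.165). TPX1 bin 2, a retained intron in a peroxiredoxin gene, had 1677, 1612 and 1679% in WT C24, against 158, 150.2 and 128% in WT Col (log2 fold change 3.51, SE 0.22, adjusted p = 1.28e-05) in a host that fell (log2 fold change -2.72, adjusted p = 0.000191). The bin had 243, 179 and 407 counts in WT C24, where the whole gene had 248, 190 and 415. In WT Col it had 109, 299 and 115 counts, where the gene had 1179, 3407 and 1541. The count of the bin thus came close to that of its gene in WT C24 and not in WT Col, and the cause was not tested. SNF7.1 bin 4, a retained intron in a gene of membrane sorting, was 9.89-fold higher and lost its call without WT Col 2 (highest adjusted p 0.0528). AT1G33050 bin 11 rose (adjusted p = 0.0411) and lost its call without 5 of the 6 libraries. In the clock gene LNK2, bin 16, an alternative 3′ splice site, had 358, 338 and 390.1% in WT C24, against 619, 805 and 702% in WT Col (log2 fold change -0.97, SE 0.23, adjusted p = 0.0417), lost without WT C24 1, WT C24 3, WT Col 2 or WT Col 3 (highest adjusted p 1).

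**Figure D5:**
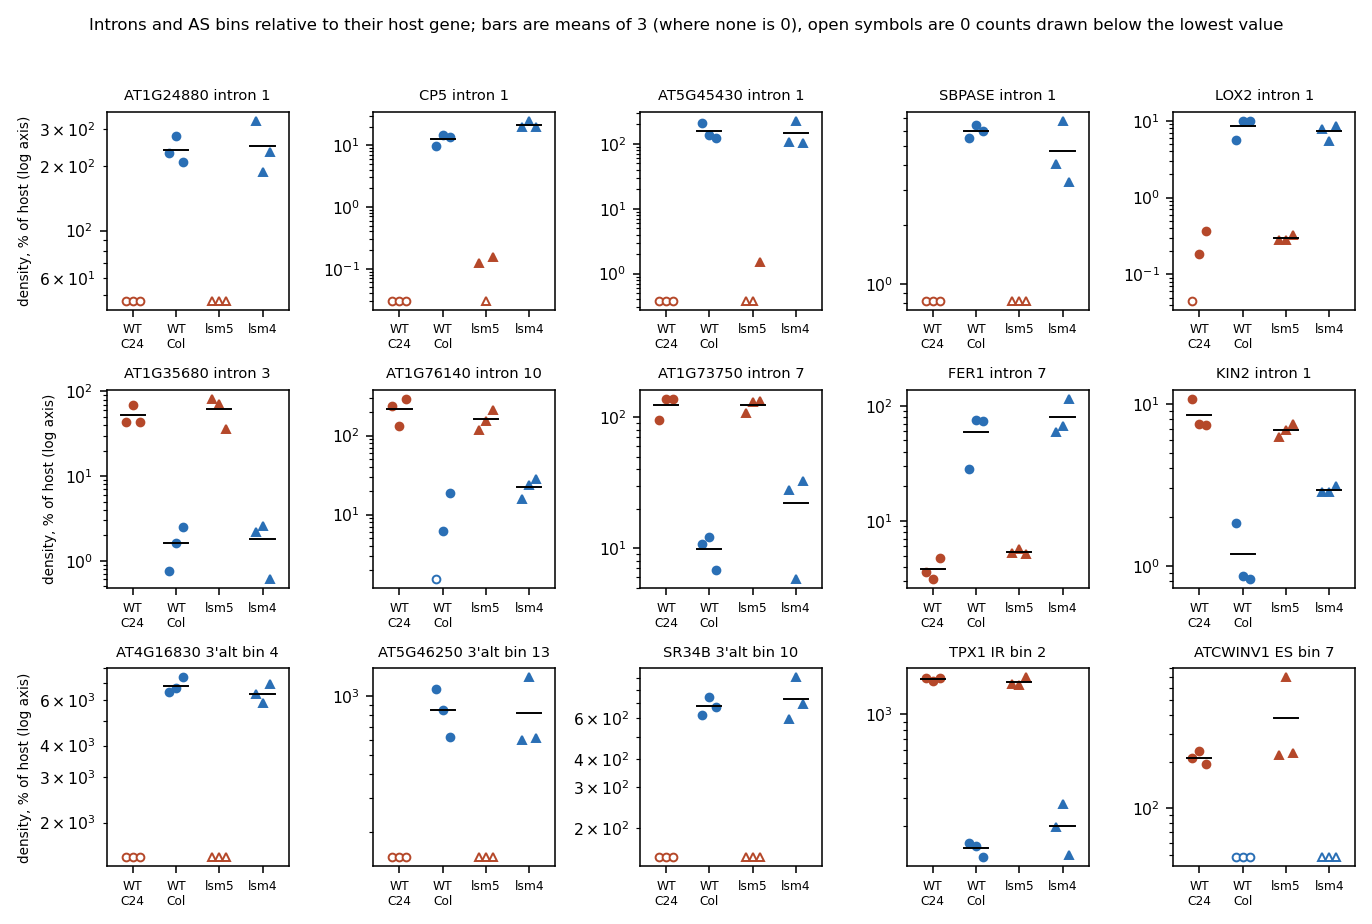
Density of 10 introns and 5 AS bins as a percentage of the density of their host gene (log axis, own range per feature) in WT C24, WT Col, lsm5 and lsm4; each point is 1 library, bars are means of 3 libraries and are left out where a library has 0 counts, and open symbols are 0 counts drawn below the lowest value. CP5, SBPASE, AT4G16830, AT5G46250 and SR34B have 0 counts in every WT C24 library, and ATCWINV1 has 0 in every WT Col library.

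Across all genes, the mutants of the same accessions, ages and media parted in much the same way. Of 20269 tested genes, 4556 (22.5%) had every lsm5 library above every lsm4 library and 5397 (26.6%) had every one below; the wild-type libraries did not overlap in 10575 (52.2%). Of the 8335 called genes, 5239 (62.9%) differed between lsm5 and lsm4 in the same direction without overlap, 364 (4.37%) did so in the opposite direction, and in 86.8% the mean log2 CPM differed in the same direction. The genotypes of the mutants differ too, so these libraries are not replicates of the wild types.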

How the data were processed

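RNA-seq of polyA RNA from whole plants was analysed from the read counts per gene, intron and AS bin that the authors deposited. Reads were mapped to TAIR10 with TopHat2 2.0.9, with R 3.0.2 and edgeR 3.4.2 also named, per the submitters' processing notes; how reads were counted and whether strand was used is not given in the sources used here, and the kit named in the labels' protocols marks no strand, so overlapping genes can share reads. The deposited counts join the 2 libraries of each replicate. Columns were assigned by name, 12 whole-number columns with no sample label were not used, and 1 intron row with no name (11 counts) was left out. Gene depth was 16997209 to 37194686 counts in WT C24 and 9402839 to 52218346 in WT Col; intervals and floors cover counting error only.

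Features passed filterByExpr at a minimum count of 10; introns and AS bins also needed a host count of 10 in every library. Their widths and the effective gene lengths, as deposited, gave densities. The 6 wild-type columns were fitted with edgeR 4.0.16 (R 4.3.3), TMM scaling and the quasi-likelihood F test, with Benjamini-Hochberg adjusted p under 0.05 over all tested features of a kind; the same test gave every adjusted p in the text. SE is the absolute log2 fold change divided by the square root of F. A fold against 0 counts was computed against 3 counts over the group, and ratios with 1 to 3 counts have exact 95% intervals. Shares were tested with exact permutation. On simulated counts for this comparison with 200 changed features, 92% were recovered for genes (20315 features), 89% for introns (5383) and 97.5% for AS bins (2770), and 8.46%, 4.3% and 5.34% of calls were false. The simulation gave every feature the same dispersion and changed only features with a mean count of at least 30, by a fixed amount. The rates hold for those settings and were not measured on the real spread of these libraries. Gene names, types and positions came from the TAIR10.1 annotation, which held 97.7% of the genes.

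Members and lists were chosen with earlier results of these data known. Named are the 8 largest called changes each way without overlap (at least 5 CPM in the higher and over 3 counts in the lower wild type). Named too are the 6 most expressed one-sided genes each way and up to 4 called members per list with any flowering, phase change or LSM member. The 6 called introns and 4 called AS bins with the largest changes each way were also named. These needed a mean count of at least 30, no overlap between the wild types and at most 1 feature per host gene. The largest called feature of each list was added. Other genes were named after their values were seen. Alternatives were DESeq2 1.42.0 and its size factors, other filters, a fit of all 4 groups, a required log2 change of 1, a replicate block, and leaving out libraries.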

Additional observations from a re-analysis of the deposited data

How the results depend on the processing

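Requiring a log2 change of at least 1 left 3180 genes, 122 introns and 61 AS bins. Leaving out 1 library moved the gene count to between 6163 and 9027, the introns to between 146 and 677 and the AS bins to between 44 and 536; without both libraries that stood apart 1530 introns and 1158 AS bins were called. A minimum mean count of 30 gave 120 introns and 77 AS bins, no filter on low counts gave 359 AS bins, the fit of all 4 groups gave 551 introns, and introns that overlap no exon numbered 215. One-sided genes numbered 39 and 5 with 0 counts only, and 287 and 86 with at least 1 CPM in the other wild type. The ratio of the chloroplast share, WT C24 over WT Col, was 0.946; it was 1.72 from medians, and without 1 library it ranged from 0.697 to 2.14 (1.18 without WT C24 2, 2.14 without WT Col 2). That of the mitochondrial share was 0.71 and ranged from 0.55 to 1.09 (1.09 without WT Col 2). The cause was not tested. Scaling by DESeq2's size factors called 8304 genes and DESeq2 itself 9057, 8186 of them shared with the main 8335.

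With a replicate block, 8673 genes, 411 introns and 96 AS bins were called. Same-numbered libraries of the wild types did not deviate together throughout (correlations 0.36, 0.21 and -0.27), so the numbers do not pair them. Of 315 called genes named or in the lists, 110 lost their call where a log2 change of at least 1 was required and 57 without some library; of 35 named introns and bins 23 kept theirs throughout. Depth limits the introns and AS bins: 5392 of 120717 introns had enough counts to be tested.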

Other observations

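Protein families were grouped by the product text of the annotation and were chosen after their values were seen, so their counts are descriptions without a test; all genes had 19.5% higher, 21.6% lower and a median log2 fold change of -0.04. Of 57 tested WRKY transcription factors, which regulate defence and ageing, 29 rose in WT C24 and 8 fell (median 0.95). Cysteine-rich receptor-like kinases rose in 19 of 30 cases and fell in 4 (median 1.49), and eukaryotic aspartyl proteases rose in 22 of 44 and fell in 5 (median 0.64). Wall-loosening expansins fell in 16 of 22 cases and rose in 1 (median -1.82), pectin lyase-like proteins fell in 24 of 49 and rose in 2 (median -0.80), and peroxidases fell in 25 of 51 and rose in 11 (median -0.95). Of 180 pentatricopeptide repeat proteins, which process RNA in chloroplasts and mitochondria, 2 rose and 52 fell (median -0.79).

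By gene type, 134 of 168 tested pseudogenes were called, 57 higher and 77 lower in WT C24, or 79.8%, against 40.7% of 19505 protein-coding genes. Among 126 transcribed pseudogenes 34 were higher and 38 lower, or 57.1%, and over both types 91 of 294 were higher and 115 lower, or 70.1%. Of 82 genes annotated as other non-coding RNA, 17 rose and 28 fell.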
